A study of Rattus norvegicus with 36 samples.

Results

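The control mammary glands of the timecourse were compared between 1 d and 6 h after saline, in the rat strains Cop (Copenhagen) and F344 (Fischer). The members are the arrays whose titles name a control gland at 1 d or at 6 h, which are 12 of the 36 arrays of the series: 6 at 1 d (3 Cop and 3 F344) and 6 at 6 h (3 Cop and 3 F344). The series set N-nitrosomethylurea (NMU), an alkylating mammary carcinogen, against saline vehicle in both strains, at 6 h, 1 d and 30 d, with 3 arrays per group. All rats were 55 days old when treated, and the control glands received the saline vehicle. No allele or transgene is named for either strain. Each array is labelled a biological replicate, nothing says that arrays came from separate animals, and the p-values measure the spread between arrays. Expression is given per gene as the deposited log2 value of its brightest tested probe set on an Affymetrix rat array, so that a change of 1 is a 2-fold difference. A change is the 1 d mean minus the 6 h mean, and the main value is the average of the changes of the 2 strains.

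In most cells of the body a molecular clock of interlocked feedback loops runs with the day. The proteins Bmal1 and Clock (or its relative Npas2) form an activator that binds E-box sequences and switches on the Per and Cry repressors, the nuclear receptors Nr1d1 and Nr1d2, and the output factor Dbp. The Per and Cry proteins then repress the activator, while Nr1d1 represses Bmal1 through Ror elements, and Dbp and its repressor Nfil3 compete at D-box sequences. The labels do not give the hour of day of collection.

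One of these elements can be seen in a promoter of the list used here. Of 21 tested clock genes, 16 have an entry in the RefSeq promoter table (build GRCr8; 250 bases before the gene start and 50 after it), and 5 have none: Clock, Cry1, Nr1d1, Hlf and Csnk1d. The promoter of Bmal1 (chr1:176766078-176766377, plus strand) is shown because it was the one of these 16 windows that held a Ror element, TAGGTCA, the element through which Nr1d1 represses. The capitals mark that element, which lies from base -16 to base -10 before the gene start:
Bmal1: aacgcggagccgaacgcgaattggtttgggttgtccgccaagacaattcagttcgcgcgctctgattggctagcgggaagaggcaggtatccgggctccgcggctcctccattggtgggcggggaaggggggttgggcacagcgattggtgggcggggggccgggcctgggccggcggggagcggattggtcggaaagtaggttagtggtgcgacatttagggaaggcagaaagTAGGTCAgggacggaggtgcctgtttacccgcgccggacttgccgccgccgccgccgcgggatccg
On either strand, TAGGTCA was present in 2.63% of the 33469 promoter windows of the table. The E-box CACGTG was found in 3 of the 16 clock promoters (Bhlhe40, Bhlhe41 and Tef) and in 6.42% of all windows. A D-box, written TTATGTAA or TTACGTAA, was found in the window of Per2 and in 1.01% of all windows. The palindromic glucocorticoid response element was in none of the 16 and in 0.0149% of all windows. These matches are letters in a window and were not measured as binding.

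The array medians of the whole series lay between 5.66 and 5.77. Krt8, a keratin of luminal epithelium, lay between 9.82 and 10.23 at 1 d and between 9.90 and 10.25 at 6 h in Cop, and between 9.23 and 9.30 at 1 d and between 8.89 and 9.23 at 6 h in F344. The 20 luminal markers together had a lower mean level. It was 8.46 at 1 d and 8.55 at 6 h in Cop, and 7.95 at 1 d and 7.74 at 6 h in F344. Skeletal muscle, which can be dissected with the gland, differed between the strains. The score of 28 muscle genes (the mean deviation of each gene from its own mean log2 value) ranged at 1 d from -2.24 to -0.73 in Cop and from 1.72 to 2.42 in F344, and at 6 h from -2.57 to -0.92 in Cop and from 1.39 to 2.47 in F344. At 1 d, F344 control replicates 1 and 2 were the closest replicate pair of the series, with a root mean square difference of 0.163 log2 units against 0.232 for the next pair. The first principal component of the 12 arrays, with 56.8% of the variance, separated the strains.

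Few genes were called between the times. Over both strains, limma called 38 of 20749 probe sets at an adjusted p under 0.05, which is 0.183% of those tested, with 21 higher and 17 lower at 1 d. By gene, 15 of 11509 rose (0.13%) and 10 fell (0.0869%). At an unadjusted p under 0.05 there were 2435 probe sets. The count of 38 fell to 6 without F344 control replicate 2 at 6 h, rose to 64 without F344 control replicate 3 at 1 d, and was 7 with the closest F344 pair counted as 1 array. In both strains, 14 of the 15 genes that rose had all 1 d arrays above all 6 h arrays (1.79% of all genes), and 3 of the 10 that fell had them below (0.478% of all genes). The direction was the same in both strains for 24 of the 25, the exception being Adgrv1. These counts describe the 25 genes and support nothing, since the genes were called on the same arrays.

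Clock genes were among those that changed. The nuclear receptor Nr1d1 rose 2.65-fold and the output factor Dbp rose 2.10-fold, while the repressor Cry1 fell. These were the 3 members called among 21 tested clock genes, 2 higher and 1 lower. Over all genes, 0.13% were called higher and 0.0869% lower. The list had a median change of 0.03, beside 0.01 over all genes. The members thus moved in both directions, and 13 of 21 changes were positive, beside 52.8% of all genes.

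Nr1d1 had log2 values of 6.77, 7.03 and 6.48 in Cop at 1 d, against 5.25, 6.07 and 4.90 in Cop at 6 h. In F344 it had 8.41, 8.39 and 8.37 at 1 d, against 7.27, 6.81 and 6.73 at 6 h. All 1 d arrays lay above all 6 h arrays of the same strain, and F344 was above Cop at both times. The change was 1.4 (SE 0.152, limma adjusted p = 6.9e-06), with 1.35 in Cop and 1.45 in F344. The difference between the strains was -0.10 (SE 0.303, limma adjusted p = 0.943). Its call held under each of the 25 alternatives tried for the average of strains.

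Dbp, a transcription factor whose own rhythm is among the strongest known in liver, had log2 values of 9.08, 9.44 and 8.84 in Cop at 1 d, against 7.65, 7.94 and 7.5 in Cop at 6 h. The F344 values were 10.32, 10.31 and 9.61 at 1 d, against 9.58, 9.17 and 9.35 at 6 h. The times did not overlap in either strain, although the lowest F344 array at 1 d stood just above the highest at 6 h. The change was 1.07 (SE 0.143, limma adjusted p = 0.000315). In Cop alone it was 1.42 (limma adjusted p = 0.000658) and in F344 alone 0.71 (limma adjusted p = 0.361), a difference that did not pass the test (0.71, SE 0.286, limma adjusted p = 0.406).

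Cry1 moved the other way. It had log2 values of 7.28, 7.66 and 7.52 in Cop at 1 d, against 8.09, 7.80 and 7.81 in Cop at 6 h. F344 glands had 6.34, 6.32 and 6.62 at 1 d, against 7.16, 7.30 and 7.34 at 6 h. Again the times did not overlap in either strain. The change was -0.62 (SE 0.135, limma adjusted p = 0.0453). That call lay close to the threshold and held under 9 of the 25 alternatives, with adjusted p values up to 0.155.

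**Figure D1:**
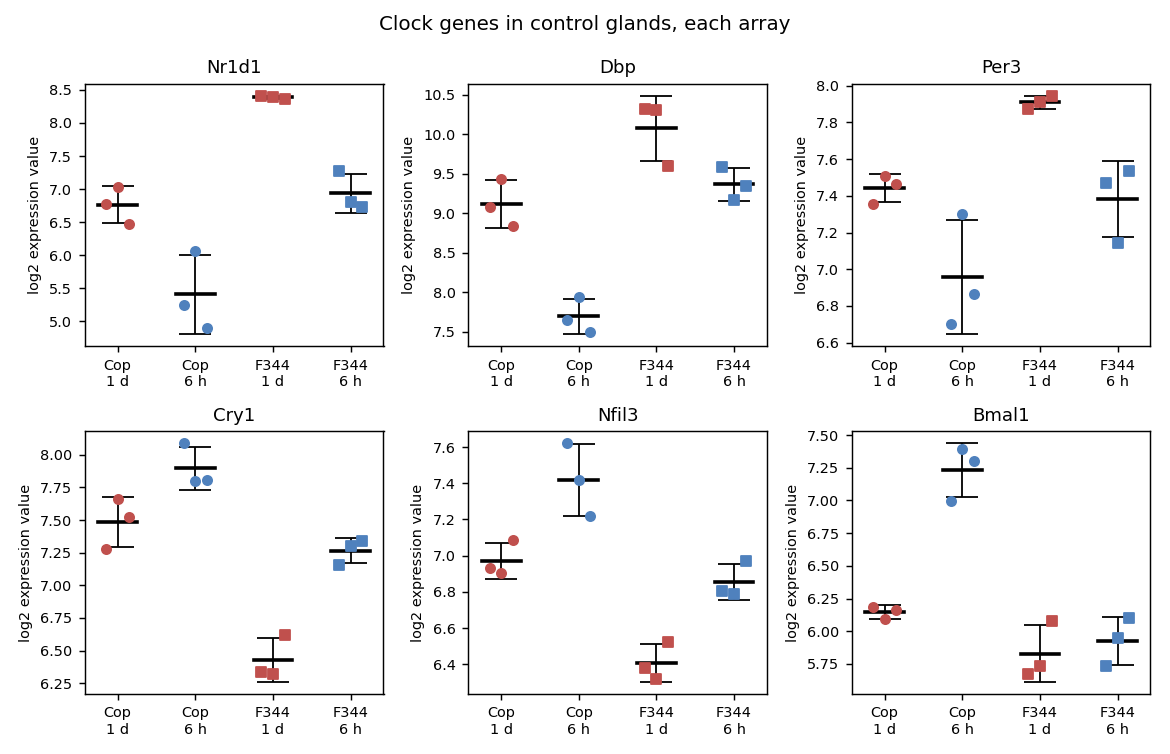
Log2 expression value (vertical axis) of 6 clock genes in each control array, by strain and time, with circles for Cop, squares for F344, red for 1 d and blue for 6 h. The line is the mean and the bar the SD of 3 arrays. Nr1d1 and Dbp are higher at 1 d and Cry1 lower at 1 d in both strains, while Bmal1 is lower at 1 d in Cop and overlaps between times in F344.

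The other repressors and outputs gave values below the threshold. Per3, a period repressor, had log2 values of 7.36, 7.51 and 7.46 in Cop at 1 d, against 6.70, 7.30 and 6.87 at 6 h. Its F344 values were 7.87, 7.91 and 7.94 at 1 d, against 7.47, 7.14 and 7.53 at 6 h. Within each strain no array overlapped between the times, with a change of 0.51 (limma adjusted p = 0.0597). A dimmer probe set of Per3 gave 0.15 (limma adjusted p = 0.653), with 0.37 in Cop and -0.08 in F344. Nr1d2, the paralog of Nr1d1, had a change of 0.33 (limma adjusted p = 0.124), with 0.34 in Cop and 0.32 in F344. Dimmer probe sets of Nr1d2 gave 0.35 and 0.56 in Cop, and 0.23 and 0.01 in F344. Nfil3, the repressor at D-boxes, had -0.45 (limma adjusted p = 0.186), with the same -0.45 in each strain. Per1 had 0.32, Bhlhe40 0.38 and Per2 -0.07, each with a limma adjusted p of 0.397 or more.

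Bmal1, the central activator, had log2 values of 6.19, 6.09 and 6.16 in Cop at 1 d, against 7.0, 7.39 and 7.30 in Cop at 6 h. In F344 it had 5.67, 5.74 and 6.08 at 1 d, against 5.73, 5.95 and 6.10 at 6 h. The Cop arrays were well apart and the F344 arrays overlapped. The change was -1.08 in Cop (SE 0.208, limma adjusted p = 0.0101, a call that held under 15 of 18 alternatives) and -0.10 in F344 (limma adjusted p = 0.973). Over both strains it was -0.59 (limma adjusted p = 0.0818), and the strain difference of -0.98 (SE 0.295) did not pass (limma adjusted p = 0.219).

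Npas2, the paralog of Clock, had log2 values of 4.94, 4.79 and 4.69 in Cop at 1 d, against 6.09, 6.21 and 5.72 in Cop at 6 h. The F344 values were 5.08, 5.10 and 6.75 at 1 d, against 4.86, 5.04 and 4.42 at 6 h. The arrays did not overlap in either strain but moved in opposite directions, and 1 F344 array at 1 d stood far above the other 2. The strain difference of -2.08 did not pass the test (SE 0.529, limma adjusted p = 0.166). Clock itself had -0.42 in Cop and 0.11 in F344.

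**Figure D2:**
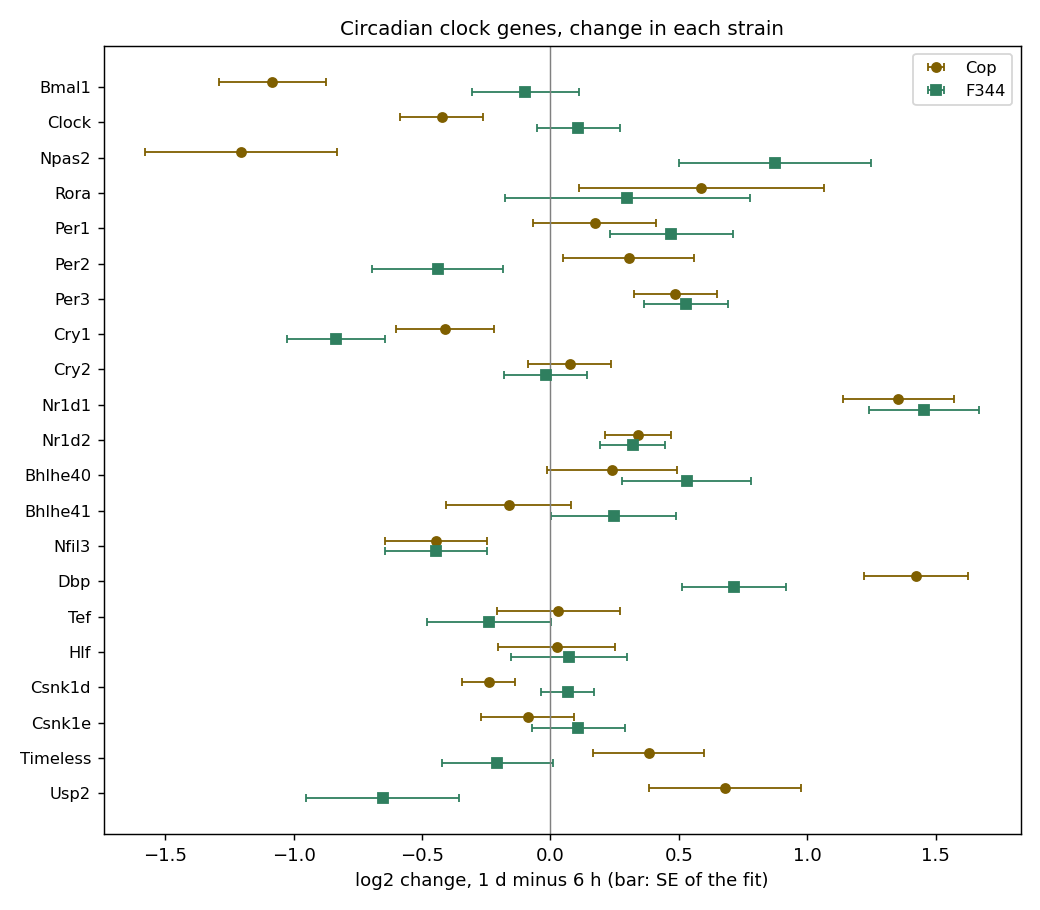
Log2 change, 1 d minus 6 h (horizontal axis), of the 21 tested clock genes in Cop controls (circles) and F344 controls (squares), with the SE of the fit as bars. Each gene is its brightest tested probe set. Nr1d1 lies near 1.4 in both strains, and Per3, Nr1d2 and Nfil3 have nearly equal changes in both. Bmal1, Npas2 and Usp2 lie apart between the strains.

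The remaining clock genes had changes between -0.16 and 0.44 over both strains, and none was called: Clock, Rora, Cry2, Bhlhe41, Tef, Hlf, Csnk1d, Csnk1e, Timeless and Usp2. Every 1 d array lay above every 6 h array for 7 of the 21 clock genes in Cop, where 10.1% of all genes did so, and for 8 in F344, where 15.3% did. It lay below for 5 in Cop, where 11.5% of all genes did so, and for 3 in F344, where 4.25% did.

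Gpt, alanine aminotransferase, rose over both strains. It had log2 values of 9.18, 9.10 and 9.15 in Cop at 1 d, against 8.74, 8.47 and 8.79 in Cop at 6 h. F344 glands had 11.04, 11.03 and 10.74 at 1 d, against 10.19, 10.07 and 10.08 at 6 h. Its arrays did not overlap between the times in either strain, and the change was 0.65 (SE 0.109, limma adjusted p = 0.00783).

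G6pc3, a glucose-6-phosphatase found in most tissues, had log2 values of 8.87, 8.94 and 8.85 in Cop at 1 d, against 8.17, 8.17 and 8.31 in Cop at 6 h. Its F344 values were 9.22, 9.16 and 9.10 at 1 d, against 8.92, 8.80 and 8.75 at 6 h. Replicates were close and the times separate within each strain, with a change of 0.50 (SE 0.0766, limma adjusted p = 0.00166). Smaller or less certain rises were called for Pfkfb1, which makes and breaks the glycolytic regulator fructose 2,6-bisphosphate (0.60), the mitochondrial lyase Clybl (0.66), and Acads, the short-chain acyl-CoA dehydrogenase of fatty acid oxidation (0.49). The limma adjusted p of these 3 lay between 0.0363 and 0.0439, and the calls of Pfkfb1, Clybl and Acads held under 11, 13 and 13 of the 25 alternatives. Over both strains no gene was called in the lists of fatty acid synthesis (18 tested), fasting and fatty acid oxidation (21) or glycogen metabolism (11).

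Lrrc39, a protein of the muscle sarcomere, had the second largest rise. Its log2 values were 6.35, 7.02 and 6.73 in Cop at 1 d, against 4.92, 4.89 and 5.0 in Cop at 6 h. In F344 they were 8.09, 8.01 and 8.73 at 1 d, against 7.50, 7.41 and 7.61 at 6 h. The times were separate in both strains, and the change was 1.27 (SE 0.227, limma adjusted p = 0.0141). With the muscle score as a covariate the change was 1.25 (limma adjusted p = 0.00844). Of the 28 muscle markers, none was called, 22 had a positive change (52.8% of all genes did), and the median change was 0.15, beside 0.01 over all genes. A dimmer probe set of Lrrc39 gave 0.48 (limma adjusted p = 0.261).

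The other genes that rose were Col15a1, a basement membrane collagen (0.59), the proteasome subunit Psmd8 (0.43), the kinase Cdk5 (0.42), the respiratory chain subunits Ndufa9 (0.37) and Cox5b (0.36), and Sil1, a nucleotide exchange factor of the endoplasmic reticulum (0.34). Grifin, a galectin-related protein, was called (0.86) without meeting the condition on single arrays and was named after its values were seen. Of the 25 alternatives, the call held under 17 for Cdk5, 14 for Col15a1, 12 for Psmd8, 10 each for Ndufa9 and Cox5b, 8 for Grifin and 6 for Sil1. For Grifin it held in none of the 12 fits that left out 1 array.

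Of the genes that fell, Aox1, an aldehyde oxidase, changed with the smallest p. It had log2 values of 6.85, 6.99 and 7.14 in Cop at 1 d, against 8.44, 8.97 and 8.43 in Cop at 6 h. In F344 it had 8.51, 8.50 and 8.30 at 1 d, against 8.95, 8.74 and 8.74 at 6 h. Both strains were lower at 1 d in every array. The change was -1.0 (SE 0.140, limma adjusted p = 0.000493), with -1.62 in Cop and -0.38 in F344. A model of the 12 arrays alone with strain as an additive covariate gave a limma adjusted p of 0.0632. Cd302, a C-type lectin receptor, fell by 0.68 on the log2 scale (limma adjusted p = 0.0258), with -0.72 in Cop and -0.64 in F344.

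The remaining genes that fell were carried mostly by one strain and were named after their values were seen. Cyp2e1, a cytochrome P450 that oxidizes ethanol and other small molecules, had log2 values of 5.30, 6.12 and 5.40 in Cop at 1 d, against 9.61, 10.24 and 8.82 in Cop at 6 h. The F344 values were 4.66, 4.73 and 4.42 at 1 d, against 5.72, 4.63 and 5.16 at 6 h. They were dim, within or below the range of the array medians (5.66 to 5.77). Only the Cop groups were apart, by -3.95 (SE 0.669, limma adjusted p = 0.00435), against -0.57 in F344 (limma adjusted p = 0.927). The strain difference of -3.38 did not pass (limma adjusted p = 0.199). The others were the aldehyde dehydrogenase Aldh3a1 (-0.64), the adhesion receptor Adgrv1 (-0.71), the linker histone H1f2 (-0.62), the uridylyltransferase Tut1 (-0.58), the prion protein Prnp (-0.39) and the actin-severing protein Gsn (-0.28). Of these, Tut1 had -0.40 in Cop and -0.77 in F344. The calls of these 7 genes over both strains held under 6 (Aldh3a1) to 14 (H1f2) of the 25 alternatives, with 10 for Cyp2e1.

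**Figure D3:**
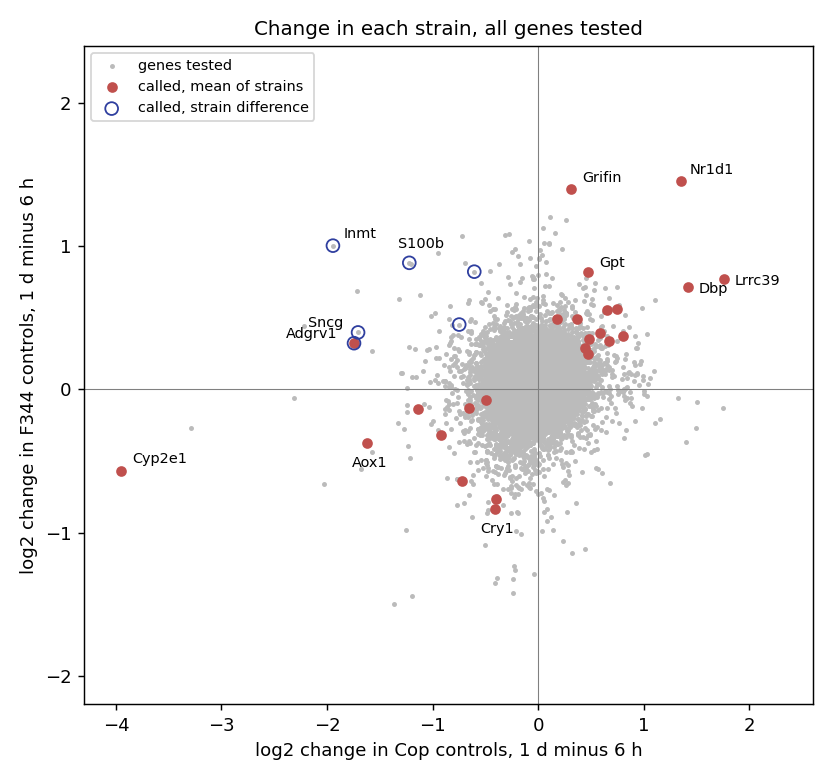
Log2 change, 1 d minus 6 h, of every tested gene in Cop controls (horizontal axis) and F344 controls (vertical axis). Grey points are the 11509 genes, red points the 25 called over both strains, and blue rings the 6 called in the strain difference. Nr1d1 lies near the diagonal, Cyp2e1 far to the left, and the ringed genes are lower at 1 d in Cop and higher in F344.

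Genes of oxidative phosphorylation, the mitochondrial respiratory chain and its ATP synthase, had mostly small positive changes. Of 24 tested, 2 were called higher and none lower, where 0.13% of all genes were called higher and 0.0869% lower. A positive change was seen for 23, beside 52.8% of all genes, and the median change was 0.21, beside 0.01 over all genes. The score of these genes was 0.01, 0.23 and 0.05 in Cop at 1 d, against -0.17, -0.27 and -0.13 in Cop at 6 h. In F344 it was 0.47, 0.48 and 0.34 at 1 d, against 0.31, 0.23 and 0.32 at 6 h. The scores did not overlap between the times in either strain. Every 1 d array lay above every 6 h array for 15 of the 24 genes in Cop, where 10.1% of all genes did so, and for 14 in F344, where 15.3% did. In Cop alone, Cyc1, the cytochrome c1 of complex III (0.66), and Ndufv2, a subunit of complex I (0.59), were called besides Cox5b. There 0.174% of all genes were called higher. These Cop calls held under 14 of 18 alternatives for Cyc1, 10 for Ndufv2 and 9 for Cox5b.

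Genes of the cell cycle had positive changes in Cop without a call. All 34 tested genes of G2 and M phase and 23 of 24 of S phase had a positive change over both strains (52.8% of all genes did), with medians of 0.34 and 0.26. Limma called none of them. At an unadjusted p under 0.05, 2 of the 34 were higher and none lower, and 8 of the 24 were higher and 1 lower, where 7.46% of all genes were higher and 5.46% lower. In Cop the medians were 0.49 and 0.51, and in F344 they were 0.09 and 0.01, beside -0.03 in Cop and 0.05 in F344 over all genes. The proliferation antigen Mki67 had log2 values of 7.34, 7.62 and 6.80 in Cop at 1 d, against 5.72, 6.55 and 6.30 in Cop at 6 h. F344 glands had 5.32, 5.55 and 5.05 at 1 d, against 5.35, 5.48 and 4.85 at 6 h. The Cop arrays did not overlap and the F344 arrays did, but the spread within groups was wide and the Cop change of 1.06 did not pass (limma adjusted p = 0.319). Mcm5, of the replicative helicase, had 0.81 in Cop (limma adjusted p = 0.221) and 0.00 in F344 (limma adjusted p = 0.999). In bulk tissue, a change in the number of cells of a type and a change in RNA per cell cannot be told apart.

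**Figure D4:**
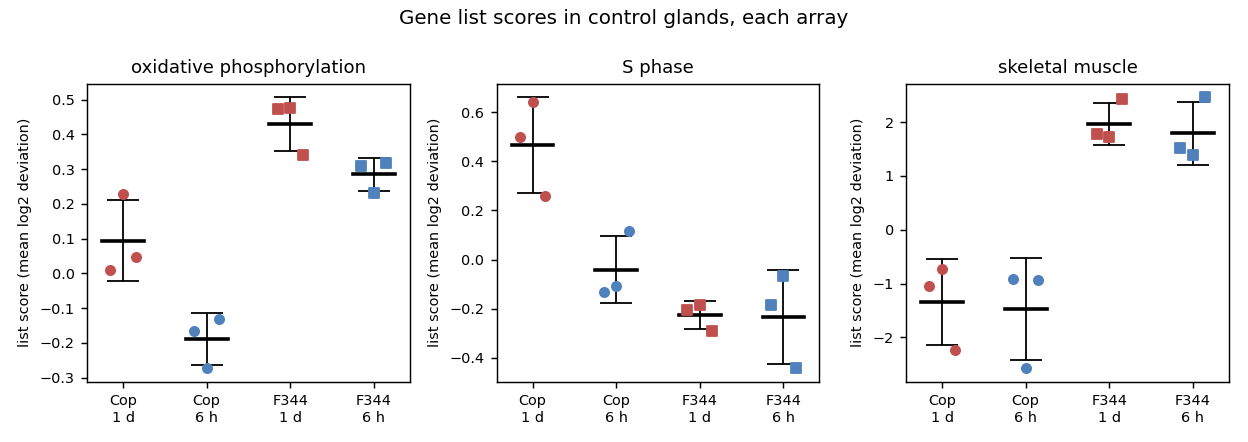
Score of each control array (vertical axis: mean deviation of a list's genes from their own mean, log2 units) for oxidative phosphorylation, S phase and skeletal muscle, by strain and time, with circles for Cop, squares for F344, red for 1 d and blue for 6 h. The line is the mean and the bar the SD of 3 arrays. The oxidative phosphorylation score is higher at 1 d in both strains, the S phase score in Cop, and the muscle score differs between strains and overlaps between times.

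Of 18 tested enzymes of xenobiotic metabolism, 2 were called lower over both strains (Cyp2e1 and Aldh3a1) and 3 in Cop alone, the third being the carboxylesterase Ces1d (-1.0, limma adjusted p = 0.0158). Over all genes, 0.0869% were called lower over both strains and 0.434% in Cop. The median change was -0.15 over both strains, -0.31 in Cop and 0.03 in F344, beside 0.01, -0.03 and 0.05 over all genes. The other 35 lists held no called gene over both strains. Their median changes lay between -0.23 (neutrophil, 4 genes) and 0.34 (G2 and M phase). Among them, the 19 glucocorticoid-induced genes had a median of -0.12, with -0.32 in Cop and 0.02 in F344. At an unadjusted p under 0.05 in limma, 3 of the 19 were lower and none higher. Over all genes, 5.46% were lower and 7.46% higher at that threshold. Sgk1, a kinase induced by glucocorticoids, had log2 values of 8.92, 9.03 and 9.05 in Cop at 1 d, against 9.69, 9.45 and 9.68 in Cop at 6 h. Its F344 values were 8.38, 8.39 and 8.45 at 1 d, against 8.69, 8.61 and 8.94 at 6 h. Within each strain no array overlapped between the times, and the change of -0.47 did not pass (limma adjusted p = 0.179).

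More genes passed in Cop alone than over both strains. Limma called 103 probe sets (0.496%), 28 higher and 75 lower, or by gene 20 higher (0.174%) and 50 lower (0.434%). After quantile normalization it called 168 probe sets, of which 46.4% were higher, against 27.2% with the values as deposited. Without Cop control replicate 2 at 6 h the count was 9, and without replicate 3 at 6 h it was 186. In F344 alone it called 8 probe sets (0.0386%), all higher, or 6 genes (0.0521%). At an unadjusted p under 0.05 in limma, 1182 probe sets were higher there and 446 lower. After quantile normalization 5 probe sets were called there, 80% of them higher. The F344 count was 3 without any one of the replicates at 6 h, and 2 and 1 without replicates 1 and 2 at 1 d. The 70 genes called in Cop and the 6 called in F344 shared 1, Nr1d1, which is 1.43% of the first list and 16.7% of the second. With the compared arrays fitted alone, Nr1d1 had a limma adjusted p of 0.054 in Cop.

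Among the Cop genes that rose, Gys2, the glycogen synthase of liver, had log2 values of 6.95, 7.68 and 7.20 in Cop at 1 d, against 5.74, 5.33 and 5.50 in Cop at 6 h. In F344 it had 8.58, 8.57 and 8.17 at 1 d, against 8.85, 8.57 and 8.29 at 6 h. The Cop arrays were apart and the F344 arrays overlapped at a higher level. The Cop change was 1.75 (SE 0.297, limma adjusted p = 0.00344). Pmel, a structural protein of melanosomes, rose by 1.51 in Cop (limma adjusted p = 0.0104).

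The largest falls in Cop after Cyp2e1 were in Nnat, neuronatin, an imprinted gene expressed in adipose tissue (-3.29, limma adjusted p = 0.0445), the matrix metalloproteinase Mmp11 (-2.31, limma adjusted p = 0.0189), and Arxes1, a gene of adipocyte differentiation described in mouse (-2.03, limma adjusted p = 0.0215). Nnat held its call in none of the 6 fits that left out 1 Cop array. Several further genes were named after their values were seen. The stress-induced chaperone Hspa1a had log2 values of 8.11, 8.01 and 7.52 in Cop at 1 d, against 9.27, 9.84 and 9.77 in Cop at 6 h. The F344 values were 7.90, 7.96 and 7.78 at 1 d, against 7.64, 7.60 and 7.38 at 6 h. The Cop arrays at 6 h were the high ones, with a Cop change of -1.75 (SE 0.292, limma adjusted p = 0.00344). In F344 the arrays did not overlap either and were higher at 1 d, and the strain difference of Hspa1a was not called. The hormone of fat cells Adipoq fell by 0.66 (limma adjusted p = 0.0367), the smooth muscle myosin Myh11 by 0.89 (limma adjusted p = 0.0206) and the globin Hbb by 1.33 (limma adjusted p = 0.0378) in Cop on the log2 scale. The Cop call held under 17 of 18 alternatives for Hspa1a, 14 for Myh11, 11 for Hbb and 10 for Adipoq, whose call held in none of the 6 fits that left out 1 Cop array.

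The scores of fat and myoepithelial markers were also lower at 1 d in Cop, and their part in these falls was not tested. They were not alone in this. Among other lists, the endothelial, mast cell, mammary hormone receptor, and Wnt and Notch scores were lower at 1 d in Cop without overlap. Those of S phase, G2 and M phase and oxidative phosphorylation were higher there without overlap. The score of 22 adipocyte markers lay between -0.14 and -0.09 at 1 d, against -0.06 to 0.14 at 6 h in Cop, and between 0.41 and 0.68 at 1 d, against 0.35 to 0.51 at 6 h in F344. Of the 22, 1 was called lower in Cop (Adipoq), as 0.434% of all genes were. A positive change there was seen for 6, beside 44.9% of all genes. The score of 15 basal myoepithelial markers lay between -0.06 and 0.05 at 1 d, against 0.21 to 0.34 at 6 h in Cop, and 1 of them had a positive change there. In F344 that score lay between -0.35 and -0.04 at 1 d, against -0.44 to -0.22 at 6 h. Adipoq was far from background in all control glands, at 11.36 or more at 1 d and 11.89 or more at 6 h.

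In F344, besides Nr1d1 and Gpt, the genes called were Grifin (1.4), Afp, the fetal plasma protein alpha-fetoprotein (1.20), the proton pump subunit Atp6v0e2 (0.72) and Tcta (0.58), the last named after its values were seen. The probe set of Afp was dim, with a mean level of 4.34 over the series, below the lowest array median of 5.66. Grifin had log2 values of 10.02, 9.94 and 9.88 in F344 at 1 d, against 8.68, 8.19 and 8.75 in F344 at 6 h. In Cop it had 5.95, 5.91 and 5.93 at 1 d, against 5.92, 5.43 and 5.51 at 6 h, so that its level was far lower there at both times. Their limma adjusted p lay between 0.0126 and 0.0305. None of these 4 was called in F344 when the closest pair of arrays was counted as 1 array.

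The change itself differed between the strains for 7 probe sets (0.0337%), all lower in Cop minus F344, or 6 genes (0.0521%). S100b, a calcium-binding protein of glia and fat cells, had log2 values of 9.96, 9.81 and 9.99 in Cop at 1 d, against 11.16, 10.91 and 11.36 in Cop at 6 h. F344 glands had 11.72, 11.70 and 11.50 at 1 d, against 10.70, 10.78 and 10.78 at 6 h. No groups of a strain overlapped, and the strains moved in opposite directions. The difference was -2.10 (SE 0.259, limma adjusted p = 0.000129), and -1.76 with the adipocyte score as a covariate (limma adjusted p = 2.08e-07).

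Inmt, an N-methyltransferase of indolamines, had log2 values of 5.71, 5.98 and 5.69 in Cop at 1 d, against 7.70, 8.0 and 7.52 in Cop at 6 h. Its F344 values were 7.94, 7.77 and 7.39 at 1 d, against 7.22, 6.59 and 6.27 at 6 h. It too was low in Cop at 1 d and high in F344 at 1 d, with a difference of -2.95 (SE 0.478, limma adjusted p = 0.0064). Sncg, a synuclein abundant in fat cells, had log2 values of 10.90, 10.71 and 10.68 in Cop at 1 d, against 12.45, 12.41 and 12.54 in Cop at 6 h. In F344 it had 12.38, 12.40 and 12.004 at 1 d, against 11.89, 11.74 and 11.96 at 6 h. The Cop arrays at 1 d were the ones that stood low, with a difference of -2.10 (SE 0.367, limma adjusted p = 0.0157).

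The other 3 genes were Adgrv1 (-2.07, limma adjusted p = 0.00123), the secreted matrix protein Spon2 (-1.43, limma adjusted p = 0.0248) and, named after its values were seen, the autophagy protein Gabarapl1 (-1.20, limma adjusted p = 0.0064). For S100b, Inmt, Adgrv1 and Gabarapl1 the call held under each of the 24 alternatives, for Sncg under 17 and for Spon2 under 12. None of these alternatives varied the probe set. A dimmer probe set of Gabarapl1 gave -0.12 in Cop and 0.17 in F344, against -0.75 and 0.45 for the one used. No gene was called in the positive direction. At an unadjusted p under 0.05 in limma, 423 of the 20749 probe sets were higher in Cop minus F344 and 1560 lower. Gys2 (1.88), Pmel (1.59) and Sctr, the secretin receptor (1.46), had the smallest p in the positive direction, with limma adjusted p values of 0.103, 0.17 and 0.16.

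**Figure D5:**
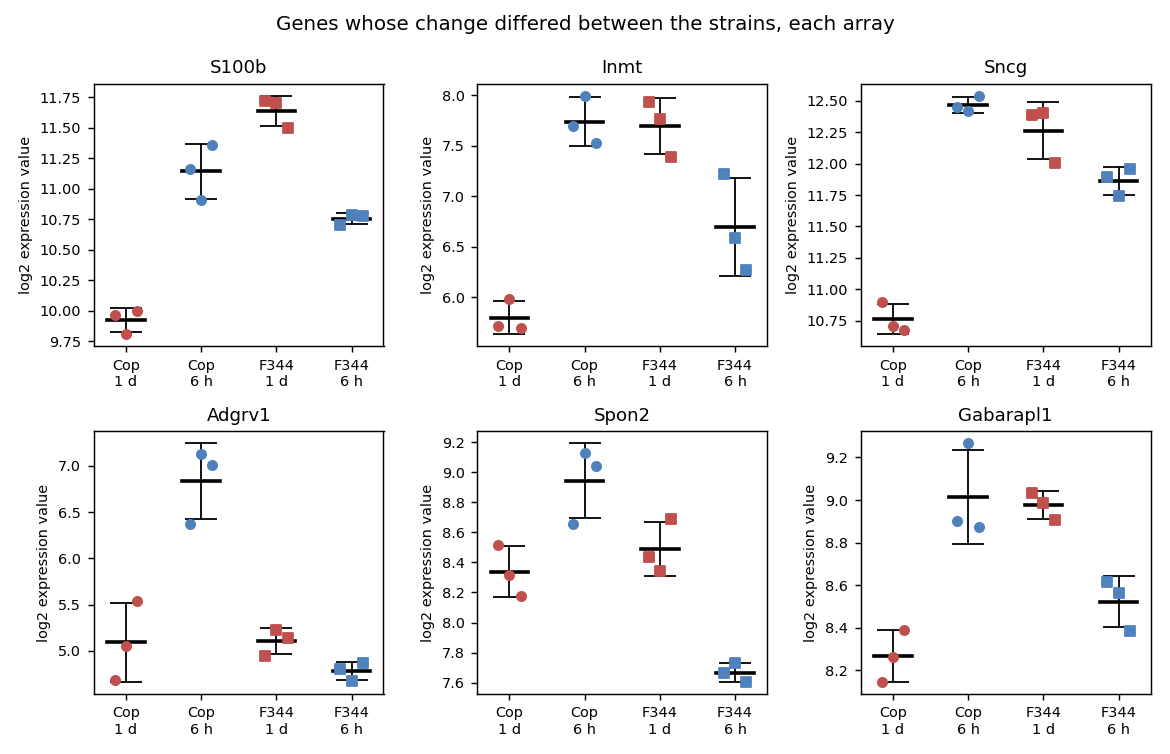
Log2 expression value (vertical axis) of the 6 genes called in the strain difference, in each control array, by strain and time, with circles for Cop, squares for F344, red for 1 d and blue for 6 h. The line is the mean and the bar the SD of 3 arrays. In each gene the 1 d arrays lie below the 6 h arrays in Cop and above them in F344.

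The same interval in NMU glands, measured on 12 other arrays, had many more calls: 1679 probe sets (8.09%), or 453 genes higher (3.94%) and 581 lower (5.05%) at 1 d. Of the 25 genes called in control glands, 22 (88%) had the same sign in NMU glands, where 61.3% of all genes had the same sign in both. Of the 25, 11 were called in NMU glands in the same direction, among them Nr1d1, Cry1, Gpt, G6pc3, Pfkfb1 and Clybl. Over all genes, 741 of 11509 were called in NMU glands with the sign of their control change. Cry1 had a change of -0.62 in control glands and -0.49 in NMU glands (limma adjusted p = 0.0224).

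The control change minus the NMU change passed for 218 probe sets (1.05%), and 5 of the 25 genes were among them. Nr1d1 had 1.4 in control glands and 0.52 in NMU glands, a difference of 0.89 (SE 0.214, limma adjusted p = 0.0333). That call held under 15 of the 36 alternatives, while those of Dbp, Aox1, Psmd8 and Cyp2e1 held under all 36. Dbp had 1.07 in control glands and 0.07 in NMU glands, a difference of 1.00 (SE 0.202, limma adjusted p = 0.00881). In Cop, the 6 h control arrays of Dbp (7.65, 7.94 and 7.5) were lower than the NMU arrays of that time (8.87, 8.90 and 9.04), while the 1 d control arrays (9.08, 9.44 and 8.84) overlapped with those of NMU (9.44, 9.09 and 9.13).

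Aox1 had -1.0 in control glands and 0.17 in NMU glands (difference -1.17, limma adjusted p = 0.00135), and Psmd8 had 0.43 and -0.18 (difference 0.60, limma adjusted p = 0.0101). Cyp2e1 had -2.26 in control glands and 1.12 in NMU glands, a difference of -3.37 (SE 0.669, limma adjusted p = 0.00902). Its Cop log2 values at 1 d were 5.30, 6.12 and 5.40 in control glands, against 11.31, 11.81 and 10.88 in NMU glands. At 6 h they were 9.61, 10.24 and 8.82 in control glands, against 9.52, 8.75 and 8.83 in NMU glands. The Cop control glands at 1 d were thus the low group of these 4.

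At 30 d the control glands, from older rats, gave a further level for the clock genes Nr1d1 and Cry1, the only ones given here for that time. Nr1d1 had 8.14, 8.10 and 8.15 in Cop and 8.19, 8.05 and 8.24 in F344, so that the strains, which were apart at 1 d and 6 h, lay together. Cry1 had 6.44, 5.68 and 6.35 in Cop and 6.03, 6.57 and 6.15 in F344. In Cop these values were below both earlier times. The muscle score at 30 d was -3.14, -0.505 and -2.37 in F344, against 1.72 or more at 1 d and 1.39 or more at 6 h. In Cop it was -0.867, -0.328 and -0.343, against -2.24 to -0.73 at 1 d and -2.57 to -0.92 at 6 h. The part of tissue composition in the 30 d levels was not tested.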

How the data were processed

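Values are the authors' deposited log2 expression values per probe set, and GCOS is named in the submitters' processing notes, without a version. No label or header states the summarization or normalization. Per the labels, biotin-labelled cRNA was made from total RNA. Values were used as deposited. Of 31099 probe sets, 20832 carry 1 gene symbol, 436 several and 9831 none in the annotation. Probe sets above their array's 40th percentile on at least 3 arrays were tested (20749). A model of 12 group means, over all 36 arrays, used limma (3.58.1, R 4.3.3) with trend and robust empirical Bayes, two-sided tests and Benjamini-Hochberg adjustment per comparison. A gene was its tested probe set of highest mean. The 38 lists (812 entries, 695 tested) and the members were chosen with earlier results of these data known. A rule picked all clock genes, the largest called changes without overlap between arrays, called members of lists with 3 or more, and the largest strain and treatment differences. The text prints part of these. For the treatment difference it prints the genes also called in control glands, not the largest. Sgk1, Mki67, Mcm5 and Krt8 were named after their values were seen. The fit was tested on simulated data. Precision is limited by 3 arrays per group.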

Additional observations from a re-analysis of the deposited data

Results flagged for a closer look

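Tests of the difference between groups picked out the following results, and groups of 3 arrays were not tested for outlying arrays. Between the strains (Cop minus F344, limma), the change differed for Inmt (-2.95), S100b (-2.10), Sncg (-2.10), Adgrv1 (-2.07), Spon2 (-1.43) and Gabarapl1 (-1.20). In all 6 the strains moved in opposite directions without overlap between the times, and the same was seen for Npas2 (-2.08). The 6 were called on the same arrays, so this describes them and supports nothing. Over all genes, every 1 d array lay below every 6 h array for 11.5% in Cop, and above for 15.3% in F344. The share of genes doing both was not counted. Only genes named over both strains or for the strain difference were searched, and Hspa1a, outside that search, had the same pattern. The difference for Npas2 did not pass its test (limma adjusted p = 0.166). Between treatments (control minus NMU, limma), the change differed for Nr1d1 (0.89), Dbp (1.00), Psmd8 (0.60), Aox1 (-1.17) and Cyp2e1 (-3.37).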

How the results depend on the processing

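The 67 called gene results in the text kept their sign in all 1542 values from the alternatives, 433 of which no longer passed, and 19 results passed under every alternative. Of 988 list medians over both strains, 3 moved by more than the replicate spread. The list medians in Cop alone and in F344 alone were not recomputed. The count over both strains (38 probe sets) was 71 after quantile normalization, 23 with no filter, 18 with the replicate block, 122 with the compared arrays alone, 7 with F344 control replicates 1 and 2 at 1 d as 1 array, and 60, 101 and 63 with the T, NK and B cell, adipocyte and luminal scores as covariates. The Cop count (103) was 168 after quantile normalization, 67 with no filter, 54 with the replicate block, 215 with the compared arrays alone and 239 with the adipocyte score. With that score 57.3% of the Cop calls and 70.3% of the calls over both strains were higher, beside 27.2% and 55.3%. The F344 count (8) was 5 after quantile normalization, 15 with the compared arrays alone, 2 with the close pair as 1 array and 20 with the luminal score. The strain difference count (7) was 90 with the compared arrays alone, and 15, 14 and 20 with the lymphocyte, adipocyte and luminal scores. The treatment difference count (218) was 615 with the compared arrays alone and 399 with the adipocyte score. Leaving out 1 array gave 6 to 64 over both strains, 9 to 186 in Cop, 1 to 9 in F344, 4 to 10 for the strain difference, 940 to 1837 in NMU glands and 152 to 237 for the treatment difference. The cause of these shifts was not tested. Same-numbered arrays at 1 d and 6 h correlated (deviations from group means) at 0.15, 0.175 and 0.025 in Cop control, -0.172, -0.018 and -0.153 in F344 control, 0.165, 0.255 and 0.157 in Cop NMU, and -0.446, -0.518 and -0.186 in F344 NMU glands. In Cop NMU glands every array correlated best with its own number, a hint from the data and not the design. In the other 3 sets not every pair was over 0.1, so the block was not used for the comparisons. With it, 1418 probe sets passed in NMU glands and 189 in the treatment difference.

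Clock genes with changes near 0 reversed sign. Usp2 was -0.01 after quantile normalization and -0.02 with the muscle and with the lymphocyte score. Without 1 array the change ranged from -0.15 to 0.16 for Usp2 (other negative values -0.07, -0.06 and -0.01), from -0.12 to 0.03 for Per2 (also 0.02), from -0.01 to 0.08 for Cry2 (also 0.00), from -0.08 to 0.20 for Bhlhe41 (also -0.02), from -0.05 to 0.11 for Hlf (also -0.02) and from -0.03 to 0.04 for Csnk1e (also -0.01).

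Arrays number 3 per group, the hour of collection is not given, and the score covariates are themselves measured on the tested arrays.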
